A study of Mus musculus with 8 samples.

Results

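Transcripts that mark cells other than CD8 T cells were read on every array of a study of age-associated CD8 memory clonal expansions, and were set beside the purity that the labels give for each sort. The set holds 35 genes, taken as a fixed list of names: 6 B cell, 4 MHC class II, 1 plasma cell, 6 myeloid, 7 tissue macrophage, 5 neutrophil, 1 erythroid, 2 platelet, 2 CD4 or regulatory T cell and 1 NK cell marker. All 35 genes had a probe set of their own, 53 probe sets in all, out of 18193 genes and 45037 non-control probe sets on the Affymetrix Mouse Genome 430 2.0 array.

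RNA came from 8 samples of 4 aged female mice, 1 clonal expansion and 1 polyclonal memory sample per mouse, taken from spleen and lymph nodes and frozen straight after flow sorting. The strain was C57BL/10SnJ for mice 1, 2 and 3 and B10.BR for the remaining animal, mouse 4, and mice 1 and 2 were 20 months old while mice 3 and 4 were 23 months old. Every sample was gated as CD8+, CD122+ and MHC II-. An expansion was also gated as positive for a T cell receptor V beta chain (Vb 3 in mouse 1, Vb 8.1 and 8.2 in mouse 2, Vb 8.3 in mouse 3, Vb 14 in mouse 4), and its polyclonal partner as negative for the same chain. Integrin alpha4 divides the expansions in the labels, expansion 1 being alpha4-high and the other 3 alpha4-low; the free-text descriptions number the last pair of these differently from the titles, and the titles were used. Each expansion was a single sorted sample from a single animal.

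Labelled purity was 91%, 95%, 96% and 98% in expansions 1 to 4, and 97%, 75%, 66% and 97% in polyclonal samples 1 to 4. The labels do not say which cells made up the remainder. In bulk RNA of this kind, fewer cells of a type and less RNA per cell cannot be told apart.

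A flow sort gates on a few surface proteins, so other leukocytes can enter as doublets or through imperfect gates, and a lineage transcript that is abundant in its own cell can be seen from few such cells. Neutrophils carry very large amounts of the S100a8 and S100a9 transcripts, plasma cells of Jchain, monocytes and macrophages of lysozyme, and B cells and dendritic cells of the MHC class II genes and the invariant chain Cd74. Some of these genes are also known outside their usual lineage: Itgax, which encodes CD11c, is carried by activated and aged CD8 T cells, and Foxp3, Vcam1 and Hmox1 are not strictly limited to 1 cell type.

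The arrays themselves set the scale. Signal is the linear value in the deposited table, and background on an array was taken as the 95th percentile of its 27 probe sets for unspiked bacterial genes, which was 46.6, 51.7, 61.9 and 33.7 in expansions 1 to 4 and 48.2, 43.6, 34.7 and 40.8 in polyclonal samples 1 to 4. From 49.0% to 67.7% of all non-control probe sets lay above it, with the highest shares in polyclonal samples 3 (67.7%) and 2 (63.5%) and expansion 4 (62.9%). The scan record separated expansion 4 from the other 7 arrays, and that record and the sample cannot be told apart. CD8 memory T cell identity genes were seen in every sample. By some probe set, 11 of 11 genes measured were above background on all 8 arrays. By probe set, all of their 17 except the dimmer one of Il2rb were, against 34.9% of all non-control probe sets. Cd8a was at 13073 to 30815, Cd3d at 3211 to 7379 and Eomes at 8505 to 21207. Il2rb, which encodes the CD122 used in the gate, was at 175 to 437. Its other probe set was at 8.64 to 91.6, above background on 4 arrays. The number of arrays limits the precision, and p-values set a difference against the spread between these samples.

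Some markers of other lineages were above background on every array, as were 49.0% to 67.7% of all non-control probe sets. Of the 35 genes, 33 were above background on at least 1 array by some probe set, and 13 on all 8. Gene counts here take any probe set of a gene, and no such share over all genes was taken. By probe set, 16 of 53 (30.2%) were above background on all arrays, against 34.9% of all non-control probe sets, and 5 of 53 (9.43%) on none, against 12.7%. The number of the 35 genes above background was 28, 25, 22 and 29 in expansions 1 to 4 and 24, 26, 28 and 26 in polyclonal samples 1 to 4. These counts have to be read beside each array's overall detection. By probe set, 71.7%, 60.4%, 58.5% and 71.7% of the 53 were above background in expansions 1 to 4, against 54.0%, 51.7%, 55.0% and 62.9% of all. In polyclonal samples 1 to 4 it was 58.5%, 66.0%, 69.8% and 66.0%, against 49.0%, 63.5%, 67.7% and 54.9% of all. In the samples labelled 75% and 66% pure the marker share thus lay close to that of all probe sets. The same held for expansion 3, labelled 96% pure (58.5% against 55.0%), and in expansion 1 the marker share was further above. These differences were not tested.

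**Figure D1:**
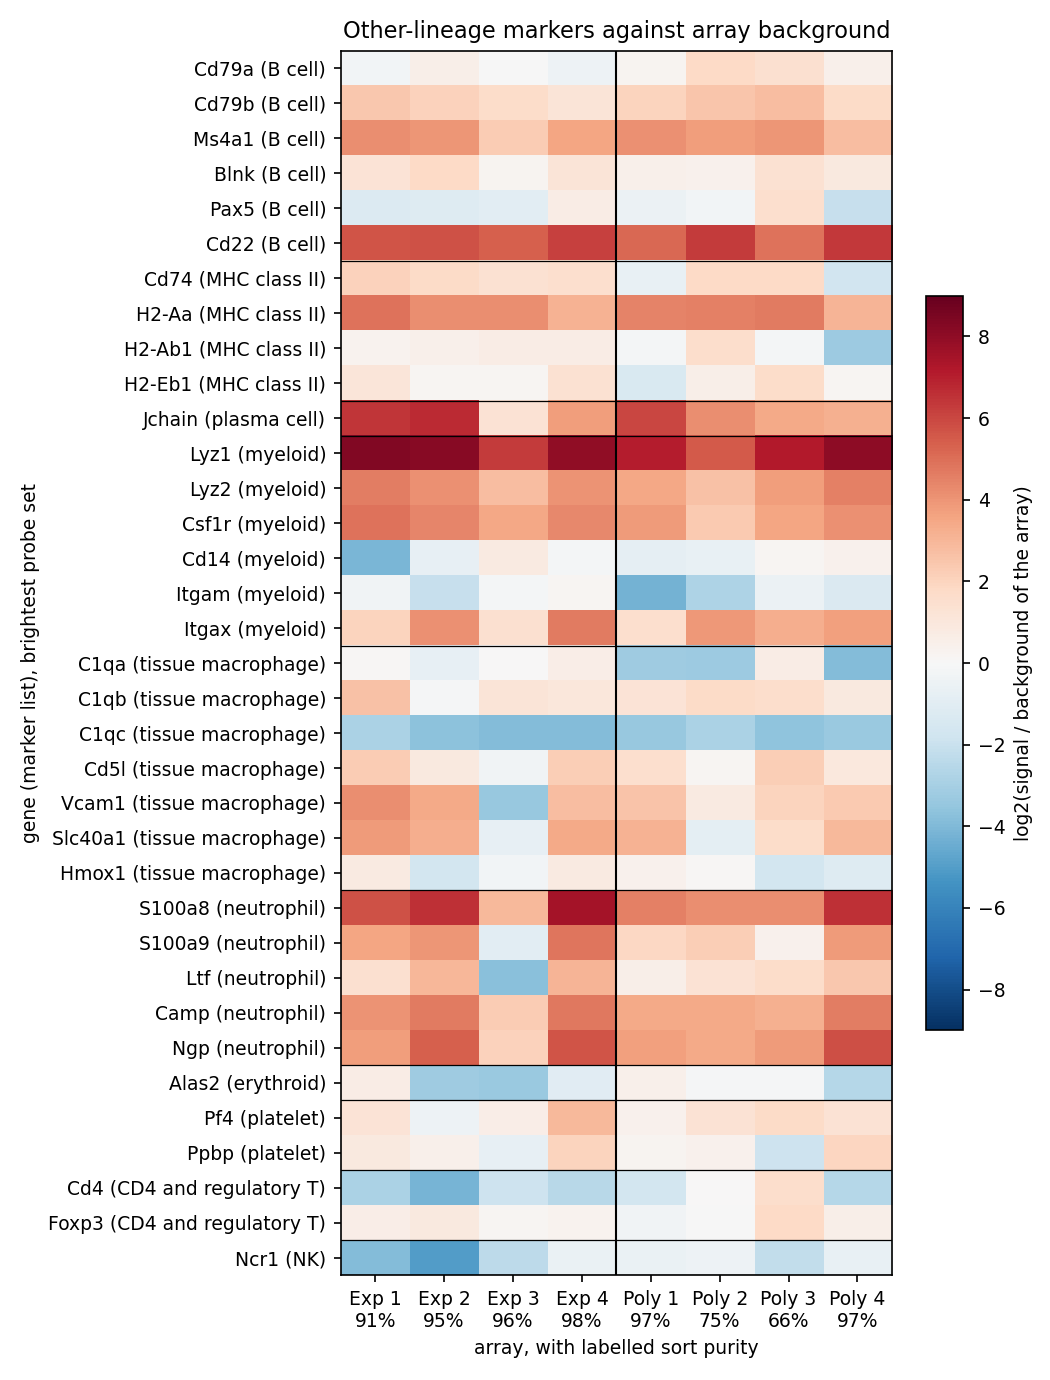
Log2 of signal over array background for the brightest probe set of each of the 35 genes (top to bottom, by lineage) on the 8 arrays (left to right). Red cells are above background and blue cells below it; lysozyme, S100a8, Cd22 and Jchain are red on all 8 arrays, and C1qc and Ncr1 are blue on all 8.

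The 5 neutrophil genes stood in a similar order from array to array. S100a8 and S100a9 encode the subunits of calprotectin, Ltf encodes lactoferrin, Camp the cathelicidin peptide and Ngp a neutrophilic granule protein. The signal of S100a8 (probe set 1419394_s_at) was 2484, 4984, 475 and 6177 in expansions 1 to 4 and 1104, 779, 633 and 3795 in polyclonal samples 1 to 4. Expansions 4 and 2 and polyclonal sample 4 were highest, expansion 3 was lowest, and the groups overlapped. S100a9 (1448756_at) read 549.6, 817, 32.3 and 971 in the expansions and 176, 207, 44.7 and 593 in the polyclonal samples. Only expansion 3 was below its own background of 61.9. Ltf (1450009_at) stood at 126, 416, 4.66 and 276 against 69.5, 106, 110.1 and 214, Camp (1419691_at) at 774, 1303, 301 and 904 against 511, 463, 319.7 and 1014, and Ngp (1418722_at) at 637, 2187, 263 and 1666 against 636, 469.5, 490.2 and 2226, each with the expansions in the order 1 to 4 first. For all 5 genes the 4 highest arrays were expansions 1, 2 and 4 and polyclonal sample 4, in an order that differed between genes, and the lowest was expansion 3. In Ngp the fourth place was held closely, with expansion 1 at 637 and polyclonal sample 1 at 636. The sum of the 5 brightest probe sets was 9707 in expansion 2, 9993 in expansion 4 and 7842 in polyclonal sample 4, against 1077 in expansion 3 and 2023 and 1598 in the polyclonal samples labelled 75% and 66% pure.

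**Figure D2:**
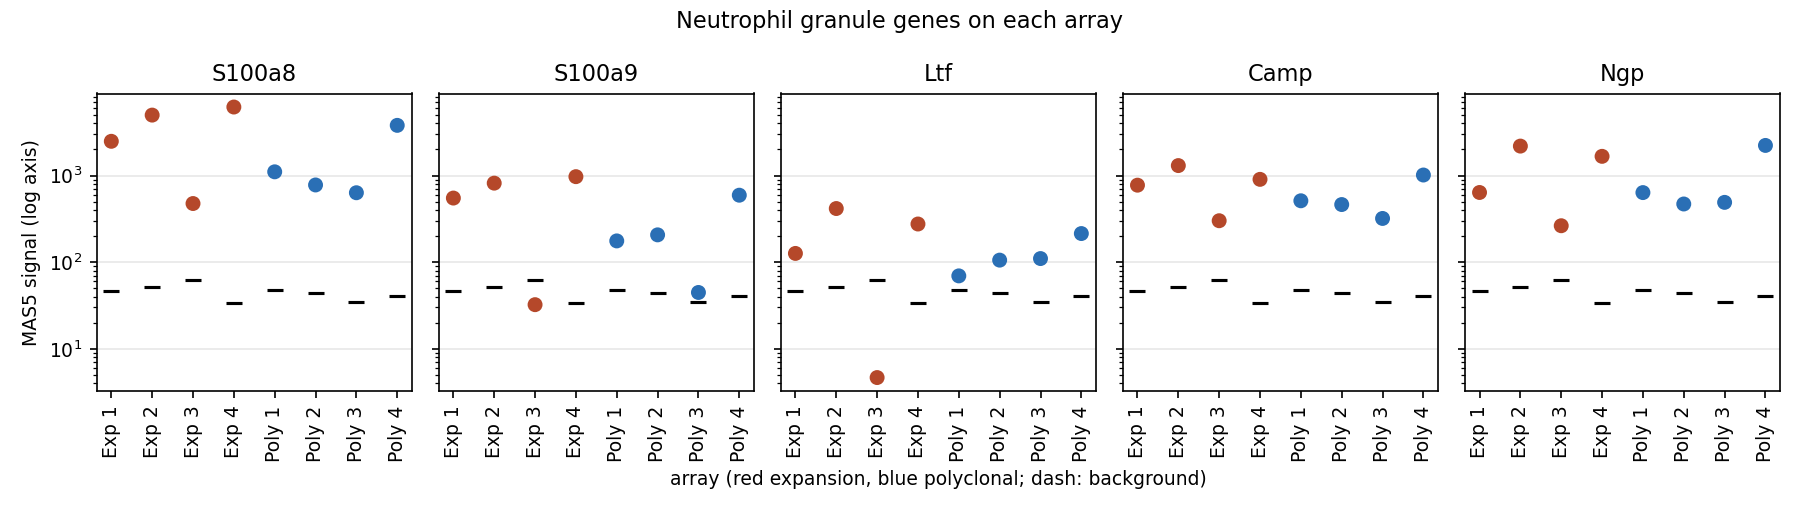
Signal (log axis) of the 5 neutrophil genes on the 4 expansion arrays (red) and 4 polyclonal arrays (blue), with a dash at the background of each array. Expansions 1, 2 and 4 and polyclonal 4 are the upper points for all 5 genes, and expansion 3 is the lowest.

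Because these 5 genes stood in a similar order over the arrays, their promoters are shown, from 250 bases before to 50 after the start site, as RefSeq gives them in build GRCm38.p6. Capitals mark matches to the C/EBP-like words TTNNGNAA or its reverse complement TTNCNNAA (both strands are covered, and the words can overlap); C/EBP factors are known regulators of granulocyte genes. S100a8 lies at chr3:90668821-90669120 (plus strand), S100a9 at chr3:90695672-90695971 (minus), Ltf at chr9:111019042-111019341 (plus), Camp at chr9:109849407-109849706 (minus) and Ngp at chr9:110419558-110419857 (plus).
S100a8: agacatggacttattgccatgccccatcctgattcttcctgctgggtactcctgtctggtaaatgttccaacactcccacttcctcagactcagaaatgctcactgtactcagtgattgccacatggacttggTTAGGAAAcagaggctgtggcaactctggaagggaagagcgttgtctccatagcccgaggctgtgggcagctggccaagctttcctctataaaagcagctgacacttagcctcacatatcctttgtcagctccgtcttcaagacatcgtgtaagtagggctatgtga
S100a9: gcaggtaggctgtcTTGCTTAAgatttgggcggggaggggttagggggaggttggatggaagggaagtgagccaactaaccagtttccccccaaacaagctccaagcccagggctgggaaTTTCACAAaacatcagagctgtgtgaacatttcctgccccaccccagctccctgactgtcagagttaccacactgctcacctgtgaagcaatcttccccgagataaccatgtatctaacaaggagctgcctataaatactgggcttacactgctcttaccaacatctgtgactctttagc
Ltf: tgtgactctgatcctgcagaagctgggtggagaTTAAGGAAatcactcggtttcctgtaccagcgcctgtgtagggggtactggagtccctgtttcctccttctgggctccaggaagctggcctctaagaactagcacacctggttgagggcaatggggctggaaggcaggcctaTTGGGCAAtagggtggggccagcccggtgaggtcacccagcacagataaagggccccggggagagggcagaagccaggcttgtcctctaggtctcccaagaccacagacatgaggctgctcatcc
Camp: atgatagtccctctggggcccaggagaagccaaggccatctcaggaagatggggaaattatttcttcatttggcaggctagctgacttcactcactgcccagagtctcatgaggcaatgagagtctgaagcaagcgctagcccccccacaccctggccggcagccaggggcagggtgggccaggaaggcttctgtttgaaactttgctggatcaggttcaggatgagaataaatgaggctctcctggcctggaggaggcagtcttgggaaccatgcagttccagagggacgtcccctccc
Ngp: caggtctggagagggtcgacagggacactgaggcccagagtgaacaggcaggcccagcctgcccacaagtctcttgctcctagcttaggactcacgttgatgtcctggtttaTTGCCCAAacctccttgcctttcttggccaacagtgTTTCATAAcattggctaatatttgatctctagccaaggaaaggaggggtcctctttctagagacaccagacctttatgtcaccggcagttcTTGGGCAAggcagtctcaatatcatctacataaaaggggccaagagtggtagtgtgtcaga
The word occurred in 4 of the 5 windows, at position -117 from the start site in S100a8, -236 and -130 in S100a9, -217 and -75 in Ltf, and -138, -102 and -11 in Ngp, and in none of the letters of the Camp window. It also occurred in 40.7% of all 32851 promoter windows of the same length (13365 windows), so the share is a description of these letters only.

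The myeloid markers were led by lysozyme, above background on all 8 arrays. Lyz1 and Lyz2 encode near-identical lysozymes, so signal assigned to either by these probe sets is uncertain between them. For Lyz1 (1436996_x_at) the signal was 14856, 15361, 4814 and 8417 in expansions 1 to 4 and 6500, 2025, 4873 and 11070 in polyclonal samples 1 to 4. Expansions 1 and 2 and polyclonal sample 4 were highest, and polyclonal sample 2 was lowest. A second probe set (1439426_x_at) read 3720, 2564, 1220 and 5591 against 1146, 641, 1411 and 1965, with expansion 4 highest, while the third (1450822_at) ranged from 4.71 to 53.9 and was above background on 1 array. Lyz2 (1423547_at) read 1128, 911, 426 and 564 against 541, 267, 461 and 936.

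Csf1r, the receptor for macrophage colony-stimulating factor, was above background on all 8 arrays by 1419872_at, at 1373, 1107, 705 and 669 in the expansions and 689, 228, 401 and 696 in the polyclonal samples. Expansions 1, 2 and 3 were above all 4 polyclonal samples, expansion 4 was not, and polyclonal sample 2 was the lowest array. Its other probe sets ranged from 21.1 to 182 and from 4.28 to 167, and 1419873_s_at was lower in expansions in 3 of 4 pairs where 1419872_at was higher in 3 of 4. Itgax (1419128_at) read 184, 903, 165 and 842 against 136, 648, 339 and 521, with expansions 2 and 4 highest and no separation of the groups. Cd14, the lipopolysaccharide co-receptor (1417268_at), gave 2.7, 30.6, 107 and 29.3 against 27.5, 27.6, 39.4 and 53.2 and was above background on 3 arrays. Itgam (1422046_at), which encodes CD11b, a defining marker of neutrophils and monocytes, gave 37.9, 12.3, 53.9 and 38.7 against 2.52, 6.32, 23.9 and 16.6, above background on 1 array only.

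Among tissue macrophage genes, Vcam1, an adhesion molecule of splenic macrophages and stroma, and Slc40a1, the iron exporter ferroportin, ranged widely between arrays. Vcam1 (1448162_at) read 864, 544, 5.77 and 235 in expansions 1 to 4 and 291, 76.1, 139 and 208 in polyclonal samples 1 to 4. Slc40a1 (1417061_at) read 658, 493, 36.6 and 366 against 420.4, 24.2, 108 and 305. Both genes were highest in expansion 1, and expansion 3 was below background for both, as was polyclonal sample 2 for Slc40a1. Their other probe sets ranged from 24.8 to 128 and from 6.42 to 46.4 for Vcam1 and from 5.74 to 137 for Slc40a1. Cd5l (1449193_at), a secreted macrophage protein, stood at 224, 97.4, 49.1 and 154 against 138, 50.1, 159.5 and 79.8. C1qb (1434366_x_at), a chain of complement C1q, stood at 293, 47.5, 136 and 67.6 against 115, 146, 104 and 73.4, and its other probe sets ranged from 2.80 to 180 and from 2.46 to 69.9. The partner chain C1qa (1417381_at) gave 49.7, 30.6, 63.6 and 50.4 against 5.2, 4.49, 54.6 and 2.73, above background on 4 arrays. C1qc, the remaining chain of the same protein, was above background on no array, at 2.25 to 6.41. Hmox1, heme oxygenase 1 (1448239_at), gave 82.9, 16.2, 52.3 and 59.5 against 64, 46.3, 10.9 and 17.9, above background on 4 arrays.

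Of the 6 B cell genes, Cd79b, Ms4a1, Blnk and Cd22 were above background on all 8 arrays. Cd22 (1419768_at), an inhibitory B cell lectin, read 2333, 2708, 2596 and 2370 in expansions 1 to 4 and 1710, 3385, 1027 and 3316 in polyclonal samples 1 to 4, while its other probe set ranged only from 6.01 to 66.6 and was above background on 3 arrays. Ms4a1 (1423226_at), which encodes CD20, read 854, 805, 298 and 389.8 against 854, 577, 544 and 273, and its other probe set 86.7 to 346. For Cd79b (1417640_at), a subunit of the B cell receptor complex, the values were 252, 215, 199 and 76.5 against 192, 249.5, 235 and 137. Expansion 4 was the lowest array for Cd79b, and the groups overlapped for all of these genes. Cd79a (1418830_at), the partner of Cd79b, gave 39.6, 74.8, 60.4 and 24.4 against 57.5, 148, 93.8 and 56.2. Its highest arrays were polyclonal samples 2 and 3, those labelled 75% and 66% pure, and expansions 1, 3 and 4 were below background. The adaptor Blnk (1451780_at) read 107, 182, 74.5 and 75.9 against 65.6, 57.4, 91.3 and 75.9. Pax5, the B cell identity factor (1454401_at), gave 19.9, 22.7, 31.7 and 53 against 32.9, 36.1, 99.8 and 9.75. Only expansion 4 and polyclonal sample 3 exceeded background for Pax5, and its other probe set ranged from 4.30 to 64.6.

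The MHC class II genes encode the molecules that the sort gated out. H2-Aa (1435290_x_at), the alpha chain of I-A, read 1374, 933, 1113 and 302 in the expansions and 1062, 1013, 872 and 332 in the polyclonal samples. Both arrays of mouse 4 were lowest, and the same held for the second probe set (1438858_x_at), at 740.2, 488, 489.6 and 194 against 599.6, 584, 346 and 145. Mouse 4 was the B10.BR animal, a strain with another MHC haplotype than C57BL/10SnJ, and strain and animal cannot be told apart. The other H2-Aa probe sets ranged from 10.9 to 65.5 and from 2.44 to 77.6. Cd74 (1425519_a_at), the invariant chain, gave 201, 167, 161 and 96.3 against 30.6, 150.2, 122 and 12.5. Polyclonal samples 1 and 4 were below background and all other arrays above it. H2-Ab1 (1450648_s_at), the I-A beta chain, gave 56.7, 69.4, 96.1 and 54.7 against 42.4, 132, 30.7 and 4.2, with polyclonal sample 2 highest; its other probe sets ranged from 2.67 to 70.7 and from 1.67 to 7.99. H2-Eb1 (1417025_at), the I-E beta chain, gave 98.2, 59.2, 71.1 and 88.4 against 18.6, 63, 110.2 and 45.6, and only polyclonal sample 1 was below background.

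Jchain (1424305_at), which encodes the chain that joins secreted IgM and IgA, was the plasma cell marker and had a wide range. It read 4016, 5414, 154 and 455 in expansions 1 to 4 and 3112, 804, 368 and 383 in polyclonal samples 1 to 4. The 3 highest arrays were expansions 2 and 1 and polyclonal sample 1, and expansion 3 was the lowest.

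Of the platelet, red cell, CD4 T cell and NK cell markers, Pf4 was above background on 7 arrays, Ppbp and Foxp3 on 6, Alas2 and Cd4 on 2 and Ncr1 on none. The platelet chemokines Pf4 (1448995_at) and Ppbp (1418480_at) gave 108, 38.5, 94.4 and 255 against 63.8, 109, 114 and 101 and 85.4, 70.6, 36.5 and 133 against 56.8, 56.6, 9.49 and 155, and each had its highest or second highest value in expansion 4. Alas2 (1451675_a_at), the erythroid heme synthesis enzyme, gave 75.5, 5.56, 6.01 and 16.8 against 65.3, 40, 32.2 and 6.78, above background only in both samples of mouse 1. Cd4 (1427779_a_at) gave 6.55, 2.8, 17.4 and 5.95 against 15.6, 43.9, 101 and 6.95, above background only in polyclonal samples 2 and 3, those labelled 75% and 66% pure, and in sample 2 barely so (background 43.6); its other probe set stayed at 3.68 to 13.3, below background on all arrays. Foxp3 (1420765_a_at), the regulatory T cell factor, gave 71.3, 95.4, 70.8 and 41.6 against 38.3, 42.2, 119 and 59 and was highest in polyclonal sample 3. Ncr1, which encodes the NK receptor NKp46, was above background on no array, at 1.60 to 32.4.

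The paired comparison asked whether expansions and polyclonal cells of the same mouse differed in these markers. No probe set of the 35 genes passed the test: limma with mouse as a block called 0 of 32 tested probe sets at an adjusted p under 0.05, against 0% of all 22518 tested, and 5 of 32 at an unadjusted p under 0.05, against 3.25% of all. A probe set was tested where its mean log2(signal + 5) was above the median of all, which kept 32 probe sets of 26 genes and left out Pax5, Cd14, Itgam, C1qa, C1qc, Hmox1, Alas2, Cd4 and Ncr1. The 5 were Cd74, at a log2 difference of 1.40 (SE 0.53), Lyz1 (1439426_x_at) at 1.25 (SE 0.40), S100a8 at 1.03 (SE 0.45), Csf1r (1419872_at) at 1.0 (SE 0.40) and S100a9 at 0.97 (SE 0.43), each with a limma adjusted p of 0.9998 and 4 pairs. Differences here are on the log2(signal + 5) scale, expansion minus polyclonal, which understates those of low signals.

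The pairs went different ways. Where 1 side of a pair was not above background, its difference is only a bound, given as at least so many fold against the background of that array. Cd74 was higher in the expansion in 4 of 4 pairs, by 0.15 and 0.39 in mice 2 and 3; in mice 1 and 4, where the polyclonal signal was below background, it was at least 4.16-fold and at least 2.36-fold higher. Cd79a was lower in the expansion in 4 of 4 pairs, with a mean of -0.77 (limma adjusted p = 0.9998), but the expansion was below background in mice 1, 3 and 4, where the bounds were 1.23-fold, 1.52-fold and 1.67-fold. S100a8, above background on all arrays, differed by 1.17, 2.67, -0.41 and 0.70 in mice 1 to 4. S100a9 differed by 1.62, 1.96 and 0.71 and Ltf by 0.82, 1.93 and 0.36 in mice 1, 2 and 4. In mouse 3 both were below background in the expansion: Ltf was at least 1.78-fold higher in the polyclonal sample, and no fold can be given for S100a9. Mouse 2, whose polyclonal sample was labelled 75% pure, gave the highest value for each of these 3 genes. Over the brightest tested probe set of the 26 genes the median difference was 0.35, with 23 higher and 3 lower, against a median of -0.04 over all probe sets tested, of which 10382 were higher and 12136 lower. By mouse that median was 0.67, 0.99, -0.34 and 0.08, against 0.06, -0.22, 0.01 and 0.00 over all. In mice 2 and 3 it therefore lay on opposite sides of 0, and whether labelled purity had a part in either was not tested by these medians. For no probe set of the 32 did the 4 expansions all lie above or all below the 4 polyclonal samples, against 0.711% of all probe sets for higher and 0.635% for lower.

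**Figure D3:**
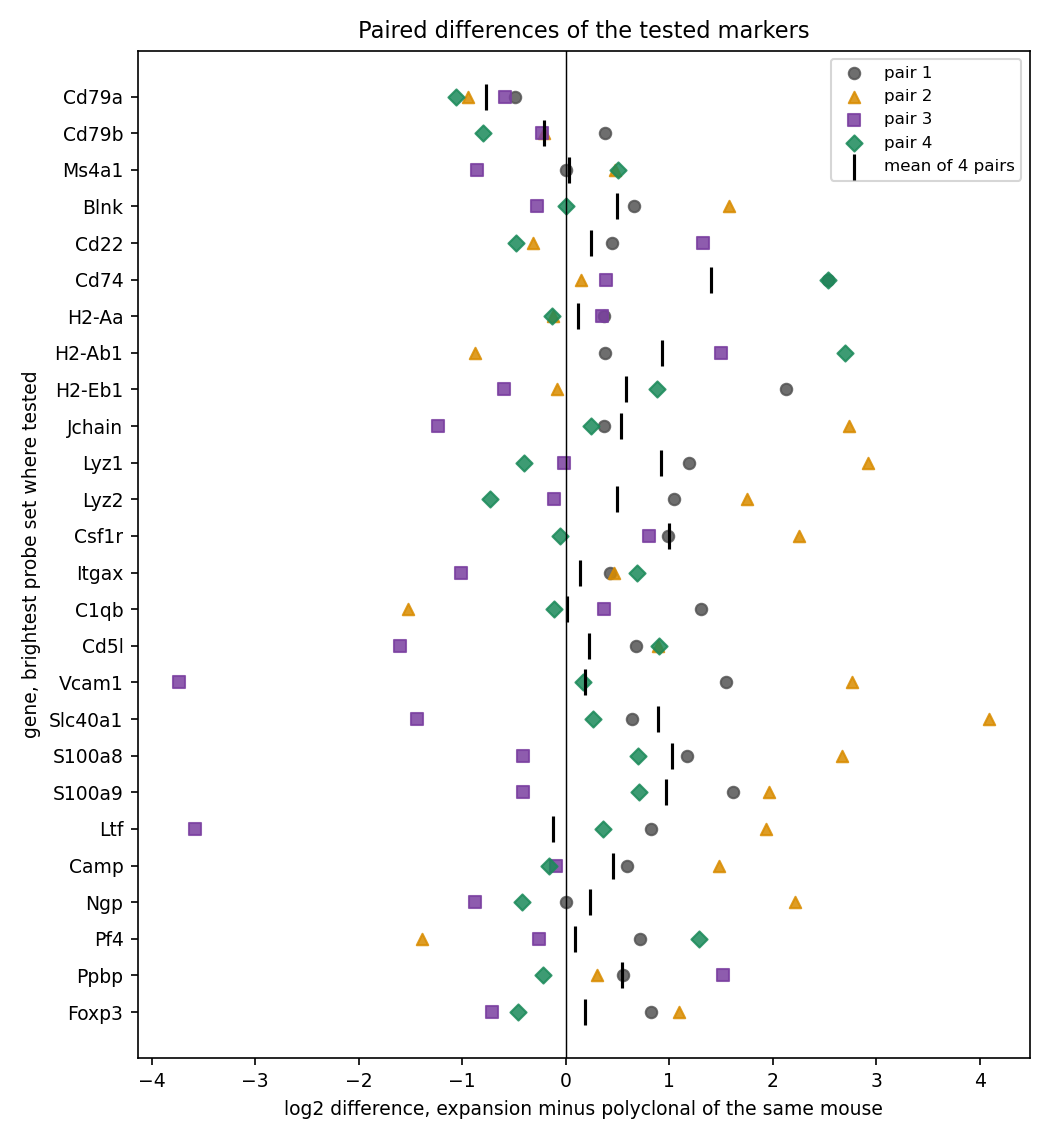
Log2 difference, expansion minus polyclonal, in each of the 4 mice (points) and their mean (bar) for the brightest probe set of the 26 tested genes. S100a8, S100a9 and Ltf lie above 0 in mice 1, 2 and 4 and below 0 in mouse 3; Cd74 lies above 0 and Cd79a below 0 in all 4 mice. Points with 1 side below background, such as Ltf in mouse 3 and Cd74 in mice 1 and 4, are not measured differences.

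Restricted to the 3 alpha4-low expansions, limma called 0 of 32 marker probe sets at an adjusted p under 0.05, against 0.0533% of all (12 of 22518), and 1 of 32 at an unadjusted p under 0.05, against 5.11% of all. That was Lyz1 (1439426_x_at), at 1.10 (SE 0.48, limma adjusted p = 0.963). The median over the 26 genes was 0.24, against -0.07 over all; relative to all it was 0.31, and -0.16 without mouse 2 and 0.82 without mouse 3. Mouse 3 bore on these calls: without its pair, limma called 138 probe sets (0.613%), and 3 of 33 marker probe sets then rose in the remaining 2 alpha4-low expansions, Slc40a1 by 2.18 (SE 0.53, adjusted p = 0.0122), Lyz1 by 1.75 (SE 0.46, adjusted p = 0.0283) and S100a8 by 1.69 (SE 0.45, adjusted p = 0.0329). That fit leaves 1 residual degree of freedom per probe set, and limma called 0 marker probe sets without mouse 1, without mouse 2, without mouse 4 or without the block. For Slc40a1 its 2 alpha4-low pairs were unequal, at least 11.3-fold in mouse 2, whose polyclonal signal of 24.2 was below background, and 0.26 on the log2 scale in mouse 4.

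The labelled purities raise a direct comparison within the polyclonal samples: samples 2 and 3, at 75% and 66%, against samples 1 and 4, both at 97%. Limma called 0 of 32 marker probe sets, against 0% of all, and 4 of 32 at an unadjusted p under 0.05, against 10.9% of all (2446 of 22518), a share near the background. With 2 samples on each side, the expansions supplied most of the estimate of spread. Cd74 had a mean signal of 136 in the less pure samples against 21.6 in the purer samples, both of which were below background, so that it was at least 3.05-fold higher (limma adjusted p = 0.241). Csf1r (1419872_at) was at 315 against 692 (-1.18, SE 0.51, adjusted p = 0.449), Lyz1 (1436996_x_at) at 3449 against 8785 (-1.43, SE 0.63, adjusted p = 0.451) and Slc40a1 at 65.9 against 363 (-2.66, SE 1.18, adjusted p = 0.454), all in limma. For Slc40a1 the less pure sample 2 was below background. Each purity class lies in different mice, so a fit with mouse as a block compares something else. This paired-difference fit sets the polyclonal minus expansion differences of mice 2 and 3 against those of mice 1 and 4. For Slc40a1 it gave -0.88.

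By order alone, both less pure polyclonal samples lay under both purer samples for 9 of 32 marker probe sets, against 17.2% of all probe sets, and over them for 6 of 32, against 37.6% of all; the other 17 overlapped. The 9 were probe sets of Lyz1, Lyz2, Csf1r, Vcam1, Slc40a1, S100a8, Camp, Ngp and Ppbp. The 6 were probe sets of Cd79a, Cd79b, Cd74, H2-Eb1, Csf1r (1419873_s_at) and Pf4. This order takes no account of background or of how close values lie. For Ppbp, sample 2 at 56.6 lay just under sample 1 at 56.8, and sample 3 at 9.49 was below background. For Csf1r (1419873_s_at), sample 2 at 102.4 lay just over sample 1 at 101.8. Both purer samples were below background for Cd74, as was sample 1 for H2-Eb1. The median difference over all probe sets tested was 0.33, lower minus higher purity, and over the CD8 identity genes 0.96, with 8 higher and 3 lower. Beside these, the 5 neutrophil genes had a median of -1.30, with 0 higher and 5 lower, but mouse 4 carried much of it: without that mouse S100a8 moved from -1.54 to -0.65, S100a9 from -1.68 to -0.82, Ngp from -1.30 to -0.40, Camp from -0.90 to -0.41 and Ltf from -0.18 to 0.60. In the paired-difference fit, which is not the same comparison, S100a8 was at -0.20 and S100a9 at 0.39. The tested myeloid genes had a median of -1.10, the macrophage genes -0.71, the B cell genes 0.21 and the MHC class II genes 1.55, with 4 higher and 0 lower. The further markers of the same lineages had medians of 0.45 (myeloid, 6 higher and 4 lower), -0.05 (macrophage), -0.02 (B cell) and 1.06 (MHC class II, 4 higher and 0 lower), so that the myeloid lists differed in sign. No difference between lists was tested. For both MHC class II lists the purer samples include polyclonal sample 4, from the B10.BR mouse, so strain and purity are mixed. H2-Aa read 1062 in polyclonal sample 1, above the less pure samples at 1013 and 872, and 332 in sample 4. For Cd74 and H2-Eb1 both purer samples lay under both less pure samples. Relative to all probe sets the 26 genes were at -0.53, also when each array was centred on its median. After quantile normalization they were at -0.61, where the median of all was -0.04. In the paired-difference fit they were at -0.15.

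**Figure D4:**
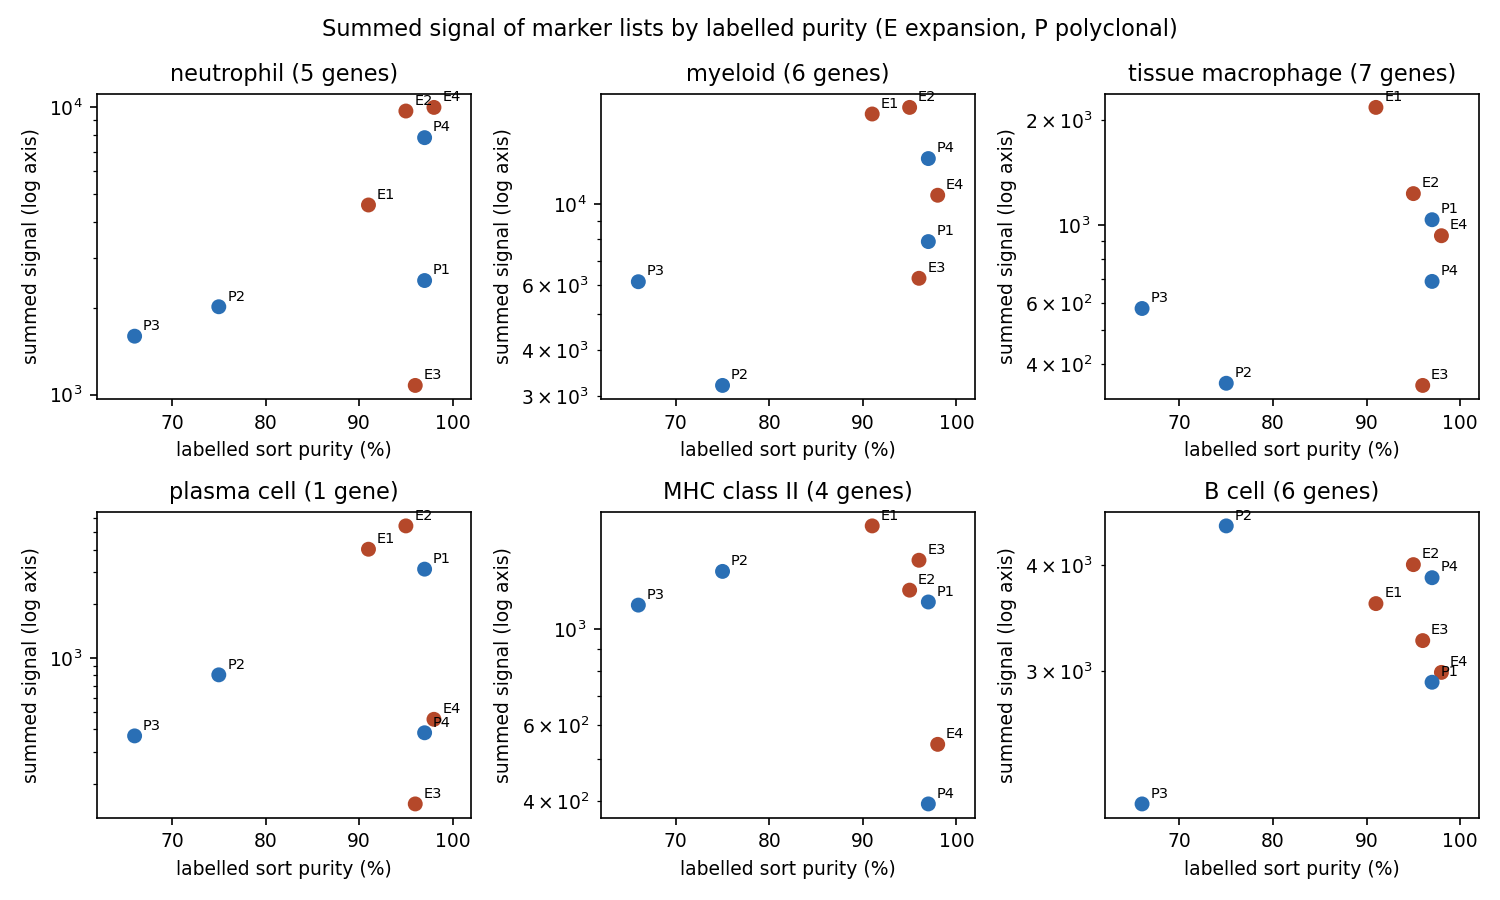
Summed signal (log axis) of the brightest probe sets of 6 marker lists against labelled sort purity in percent, expansions in red and polyclonal samples in blue. The neutrophil sums of the samples labelled 75% and 66% pure are 2023 and 1598, below those of the other 2 polyclonal samples (2496 and 7842), and the lowest neutrophil sum, 1077, belongs to expansion 3, labelled 96% pure.

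Labelled purity and summed marker signal can be read side by side over all 8 samples. The myeloid sum was 17582, 18325, 6271 and 10560 in expansions 1 to 4 and 7896, 3202, 6138 and 13293 in polyclonal samples 1 to 4. Its lowest value, 3202, was in the sample labelled 75% pure, and the 3 highest were in samples labelled 95%, 91% and 97% pure. The largest component of the myeloid sum on every array was the Lyz1 probe set 1436996_x_at, at 14856 in expansion 1. The tissue macrophage sum was 2177, 1233, 348 and 934 against 1038, 353, 578 and 691. The MHC class II sum was 1730, 1229, 1441 and 541 against 1154, 1358, 1135 and 394, lowest in both samples of mouse 4. Its largest component on every array was the H2-Aa probe set 1435290_x_at. The B cell sum was 3605, 4008, 3260 and 2990 against 2911, 4453, 2091 and 3868, and its largest component on every array was the Cd22 probe set 1419768_at, whose gene's other probe set lay near or below background. Other fits also used labelled purity, and limma called 0 of 32 marker probe sets in each, against 0% of all. With a slope on purity over all 8 arrays the smallest limma adjusted p was 0.595. There 3 of 32 had an unadjusted p under 0.05, against 7.89% of all. In the paired-difference fit used above, of mice 2 and 3 against mice 1 and 4, the smallest was 0.718. There 1 of 32 had an unadjusted p under 0.05, against 6.21% of all.

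Further markers of the same lineages were read in the same way: 83 were listed, 68 had a probe set of their own, and 65 of the 68 were above background on at least 1 array and 19 on all 8. By probe set, 27 of 125 (21.6%) were above background on all 8 arrays, against 34.9% of all, and 12 (9.6%) on none, against 12.7%. No gene of these lists passed the limma test in any of the 3 comparisons, among 42 tested genes. Values here are those of the brightest probe set of each gene. Ighm (1427351_s_at), the IgM heavy chain, read 8614, 34327, 8540 and 2013 in expansions 1 to 4, highest in expansion 2. In polyclonal samples 1 to 4 it read 10738, 14283, 3526 and 5537. Ighm had 11 probe sets, and the others ranged from 2.005 to 1493. Among these, 1427329_a_at was highest in expansion 2 and 1427870_x_at in expansion 1. H2-Ob, a subunit of the class II peptide-loading regulator H2-O, read 307, 8961, 2453 and 207 against 1822, 2186, 1187 and 258, also highest in expansion 2 and low in both samples of mouse 4. Slc4a1 (1434502_x_at), the red cell anion exchanger band 3, read 1325, 72.9, 26.4 and 584 against 1077, 80, 84.2 and 166. Both samples of mouse 1 were highest. The other Slc4a1 probe sets ranged from 7.23 to 128 and from 1.96 to 19.8. Of the 5 further erythroid genes measured, only Slc4a1 was bright enough to be tested. The cysteine protease Ctss ranged from 25666 to 37693. Its highest array was 1.47-fold its lowest, against 7.58-fold for Lyz1 (1436996_x_at), and which cells carried Ctss was not tested. The chemokine receptor Ccr2, which memory T cells also carry, ranged from 1042 to 5332. Of the 7 further neutrophil genes measured, only Il1b was bright enough to be tested, at 35.9 to 236, and above background on all 8 arrays. The others were above background on 0 to 4 arrays, so most did not share the wide detection of the 5 listed neutrophil genes. Csf3r, above background on 3 arrays, was lowest in expansion 4 (3.99), where S100a8 was highest. Its highest value, 122, was in polyclonal sample 4. The NK receptor genes Klra8 and Klre1, which memory CD8 T cells can also carry, ranged from 49.1 to 21818 and from 96.4 to 10649. Klra8 (1425417_x_at) was lower in the expansion of every mouse, at 49.1, 292, 197.5 and 1103 against 441.5, 15079, 665 and 21818. In the alpha4-low comparison it had a limma adjusted p of 0.0528. Prdm1 and Xbp1, factors shared by plasma cells and effector T cells, ranged from 174 to 1408 and from 1392 to 3791.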

How the data were processed

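Total RNA from 8 sorted samples was amplified, labelled with biotin and hybridised to Affymetrix Mouse Genome 430 2.0 arrays, per the labels' protocols. The deposited table holds the authors' linear intensity (signal) per probe set; the submitters' processing notes name MAS5, and neither its version nor detection calls are given in the sources used here. Probe sets were named from the platform annotation: 34945 had 1 gene, 932 several and 9160 none, and only those with 1 gene were named.

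Background was the 95th percentile of 27 unspiked bacterial probe sets per array. Signals were taken as log2(signal + 5) and tested with limma 3.58.1 in R 4.3.3 (intensity trend, Benjamini-Hochberg over 22518 probe sets whose mean lay above the median, a signal of about 45.3; two-sided, threshold 0.05). Mouse was a fixed block in the paired fits, since the series text pairs the samples; deviations of paired samples correlated at 0.374, 0.0771, 0.214 and 0.338 in mice 1 to 4. Purity classes of polyclonal samples were compared in a model of 3 groups of arrays without a block. Changes of 1, 2 and 4 on the log2 scale were added to simulated data. The paired fit recovered 8.96%, 79.1% and 100% of them, with 5 false calls. The alpha4-low fit recovered 2.99%, 74.6% and 100%, with 11 false calls, and the purity comparison 0%, 41.8% and 100%, with 5. The simulated spread was that of a fit with mouse as a block and separate terms for alpha4-low and alpha4-high expansions. Each added change was the same in all samples it was given to. Differences between the 4 pairs that go with alpha4 were thus not simulated, so recovery by the paired fit may be too high. The purity comparison lies between mice, whose own spread was not simulated, so its recovery may be too high.

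All 8 signals are given for the brightest probe set of each gene above background on at least 1 array; other probe sets, and genes above background on none, by range; of the further lists, only genes that pass a test or the 2 with the highest mean signal per list may be named. Genes and lists were chosen with earlier results of these data known. Promoter windows came from RefSeq (GRCm38.p6). The alternatives were other pseudocounts, scalings, filters and backgrounds, with and without a block or a purity term, and leaving out each mouse.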

Additional observations from a re-analysis of the deposited data

Results flagged for a closer look

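In 3 genes the value of 1 polyclonal sample stood far from those of the other 3, by Dixon's criterion for the gap over the range. H2-Aa (1435290_x_at) was 332 in polyclonal sample 4, against 872 to 1062 in the others. C1qa was 54.6 in polyclonal sample 3, against 2.73 to 5.20 in the others, and exceeded background there. Ncr1 was 7.36 in polyclonal sample 3, against 26.1 to 32.4 in the others, with all 4 values below background. These were 3 of 70 groups of 4 arrays examined, and chance alone picks out about 1 in 20.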

How the results depend on the processing

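The markers called stayed at 0 in the comparison of all pairs and in that of purity classes under every alternative run. In the comparison of all pairs, the count over all probe sets ranged from 0 to 14 when a mouse was left out (14 without mouse 1). In the alpha4-low comparison, 12 probe sets became 6 after quantile normalization, 42 with centred arrays, 0 without the intensity trend and 0 without the replicate block, and 14 to 157 with a mouse left out (138 without mouse 3, 157 without mouse 4); markers called there ranged from 0 to 3. In the purity comparison the count was 0, and 5 without the filter. The median of the 26 genes relative to all probe sets, -0.53 in that comparison, was -0.15 in the paired-difference fit. Marker genes above background in expansion 3 fell from 22 to 14 when the background was doubled. Some differences changed sign. Between expansions and polyclonal samples Ltf was at -0.12, and at 0.18 with a pseudocount of 32. It was at 0.80 with purity as a covariate and the replicate block, and at -0.80 to 1.03 with a mouse left out. Ngp in the same comparison was at 0.23, and at -0.43 to 0.60 with a mouse left out. In the purity comparison S100a9 was at -1.68, against 0.39 in the paired-difference fit. Ltf there was at -0.18, against 1.41 in the paired-difference fit and -0.96 to 0.60 with a mouse left out. The causes were not tested.

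Limits: 4 mice, 1 array per sample, and 2 polyclonal samples in each purity class. Labelled purity does not name the other cells, and mouse, strain, V beta chain and, for expansion 4, the scan record cannot be told apart. Signals near background carry no order.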
